A study of Mus musculus with 8 samples.

Results

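Notch signalling in tumour endothelial cells (ECs) was described from 9 genes, the ligands Dll4, Jag1 and Jag2, the receptors Notch1 and Notch4, the targets Hey1, Hey2 and Hes1, and Esm1, a proteoglycan gene of sprouting ECs. They were taken by name from the 20408 genes in the files, and were read in the 7159 of 8204 deposited cells that held at least 1 UMI of Pecam1, the gene of the sorted surface protein CD31. Notch receptors are cut when a ligand on a neighbouring cell binds them, and the released intracellular part acts with the DNA-binding protein RBPJ to switch on genes of the Hes and Hey families. In vessels, Dll4 on the leading tip cell of a sprout holds its neighbours back from becoming tip cells, whereas Jag1 can weaken that signal. High Notch activity is also a property of arterial ECs.

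Cells came from adult mice of 4 groups, with 2 libraries per group and 2 mice per group according to the methods of the study. Spontaneous tumours arose in MMTV-PyMT mice, in which the MMTV promoter drives the polyoma middle T antigen mainly in mammary epithelium, and implanted breast tumours grew from cultured MMTV-PyMT tumour cells placed in the mammary fat pad of female mice. Tumours of each model were injected with PBS or with cGAMP, an agonist of the sensor STING, and live CD31+ cells were sorted 3 h later. The strain is not settled, since every label says C57BL/6 and the methods speak of FVB mice. Where the labels do not tie a library to its own animal, the p values measure the spread between these libraries.

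The promoters of 7 members were found among the RefSeq promoters (GRCm38.p6). Those of the targets Hey1 and Hes1 were not found there and were not searched for motifs. Those of the members whose level turns the results below are shown with Hey2, the 1 of the 7 that held the RBPJ motif TGGGAA on either strand. Each run is the 250 bases before the RefSeq start, read 5′ to 3′ on the strand of the gene, and capitals mark the RBPJ match.
Jag1, chr2:137116521-137116770, minus strand: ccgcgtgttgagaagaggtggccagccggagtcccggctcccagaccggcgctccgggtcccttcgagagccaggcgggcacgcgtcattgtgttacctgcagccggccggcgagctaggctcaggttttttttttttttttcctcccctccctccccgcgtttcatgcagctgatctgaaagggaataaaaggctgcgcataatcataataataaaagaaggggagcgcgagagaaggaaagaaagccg
Dll4, chr2:119325534-119325783, plus strand: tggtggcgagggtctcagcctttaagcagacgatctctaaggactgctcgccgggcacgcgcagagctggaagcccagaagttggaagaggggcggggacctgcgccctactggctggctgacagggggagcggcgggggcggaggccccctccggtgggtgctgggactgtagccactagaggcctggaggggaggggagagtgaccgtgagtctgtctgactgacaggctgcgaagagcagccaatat
Esm1, chr13:113209409-113209658, plus strand: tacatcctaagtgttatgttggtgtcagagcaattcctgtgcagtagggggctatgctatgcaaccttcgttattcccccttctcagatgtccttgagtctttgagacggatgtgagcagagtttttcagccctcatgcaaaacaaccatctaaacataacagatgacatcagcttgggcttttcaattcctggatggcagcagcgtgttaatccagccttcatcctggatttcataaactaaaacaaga
Hey2, chr10:30842784-30843033, minus strand: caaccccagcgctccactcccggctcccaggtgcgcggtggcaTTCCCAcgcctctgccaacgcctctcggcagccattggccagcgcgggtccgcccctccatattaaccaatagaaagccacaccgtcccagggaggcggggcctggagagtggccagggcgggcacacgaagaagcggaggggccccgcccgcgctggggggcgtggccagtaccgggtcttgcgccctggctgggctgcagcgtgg

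The Hey2 match began 207 bases before the start. Of 32851 promoters of this length, 21.59% held TGGGAA and 6.021% the E-box CACGTG, a motif that Hes and Hey proteins can bind, which none of the 7 members held. A match is a description of letters and not a site. All 9 members are protein-coding genes.

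A library held 601 to 1529 Pecam1-positive cells and 7451522 to 16338968 UMIs in them. Replicate 1 of implanted cGAMP was shallow, with a median of 3049 UMIs per Pecam1-positive cell against 9523 to 14708 in the other libraries. Over all deposited cells these medians were 2014 and 8803.5 to 13148. All 7 pan-endothelial markers were found in every library, at a summed level of 4010 to 4802 CPM. Markers of other cell types were present throughout. Over 8 mural markers the summed level was 215 and 590 CPM in spontaneous PBS, 881 and 655 CPM in spontaneous cGAMP, and 180 to 388 CPM in the 4 implanted libraries. Over 6 immune markers it was 156 CPM in replicate 1 of implanted cGAMP and 6.88 to 35.9 CPM elsewhere, and over 6 epithelial markers 339 CPM there and 46.3 to 149 CPM elsewhere. The level of a gene below is its mean over the Pecam1-positive cells of a library in CPM (UMIs scaled to the same total in every cell), each cell weighing equally.

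To place the members along the vessel tree, each cell was given the class of the marker list with the highest mean z-score, if that was at least 0.5, from arterial, venous, tip-like, capillary, lymphatic and proliferating lists that held no member. This gave 1084 arterial, 1138 venous, 965 tip-like, 883 capillary, 426 lymphatic and 369 proliferating cells, and 2294 cells were low in all lists. A class is a range of a score and not a cell type, and 869 cells (12.1%) lay within 0.1 of the score that divides them. Differences between classes are described without a test, since the classes were made from the same cells.

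The ligands and receptors were highest in the arterial class. Dll4 reached 267 to 392 CPM there (median 330 CPM over 8 libraries), 226 to 350 CPM in the tip-like class (median 299 CPM) and 13.8 to 86.0 CPM in the venous class. Arterial and tip-like values of Dll4 overlapped, and both lay above all venous values. Jag1 was the most uneven ligand, at 175 to 344 CPM in the arterial class and at 15.4 to 49.8 CPM in the capillary class, so that the arterial cells, a median 14.4% of the Pecam1-positive cells of a library, held a median 54.1% of its summed level (range 44.7% to 73.96%). Jag2, a ligand of the same family, gave 247 to 390 CPM in the arterial class and a median of 119, 83.9, 62.7 and 41.5 CPM in the capillary, low-marker, tip-like and venous classes. Among these ligands and receptors Notch1, an endothelial receptor, was spread most evenly, at medians of 339 CPM in the arterial class and 174 CPM in the venous class. Notch4, an endothelial receptor, followed Dll4, at medians of 191, 147 and 14.5 CPM in the arterial, tip-like and venous classes.

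The targets differed from each other in their placement. Hey1, a repressor switched on by Notch, reached 202 to 344 CPM in the arterial class, 13.6 to 68.8 CPM in the tip-like class and 0 to 11.03 CPM in the venous class. No value of Hey1 in the tip-like class came near the lowest arterial value, although Dll4 was almost as high in the tip-like as in the arterial class. Hey2, a related repressor of arterial ECs, had only 261 UMIs in all, at 12.2 to 35.8 CPM in the arterial class and at most 2.93 CPM in the capillary, low-marker, tip-like and venous classes. Hes1, which many signals besides Notch can raise, varied least in its median among the arterial, venous, tip-like, capillary and low-marker classes, with 285 CPM in the tip-like, 234 CPM in the arterial and 167 CPM in the venous class. Its highest level was in the lymphatic class, at 265 to 597 CPM (median 425 CPM). Esm1 was highest in the tip-like class, at 113 to 553 CPM (median 222 CPM), with a median of 121 CPM in the arterial class and at most 4.54 CPM in the venous class.

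Set against all genes, 8 of 9 members were higher in the arterial than in the capillary class in 8 of 8 libraries, against 8.8% of genes, and the same number were higher in the arterial than in the venous class in every library, against 11.6% of genes. Hes1 was the exception in both, with 5 and 7 of 8 libraries. These shares are over the 10424 genes of at least 5 CPM in at least 2 libraries, which do not include Hey2. The arterial list held Gja4 and Efnb2, which are counted among the Notch targets below. In the tip-like class, Dll4 and Esm1 were above the capillary class in 8 of 8 libraries, against 6.22% of genes, with median differences of 0.92 and 1.93 on the log2 scale. Hey1 was below the capillary class in 8 of 8 libraries, against 6.29% of genes, with a median difference of -1.04. Jag2 was lower in the tip-like than in the capillary class in 7 of 8 libraries, with a median difference of -0.85.

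**Figure D1:**
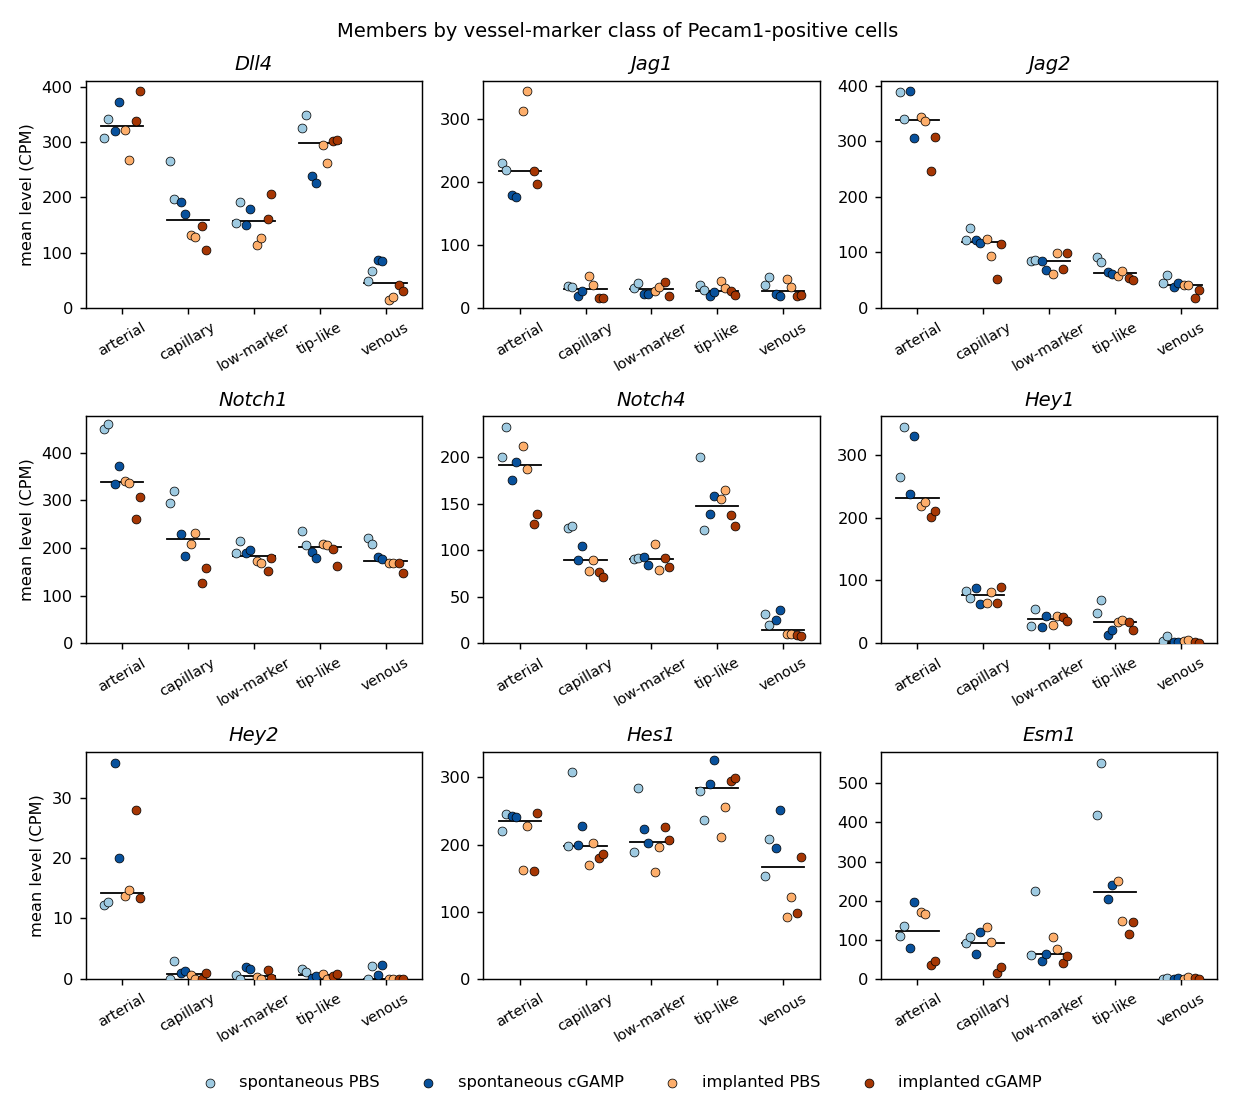
Mean level (CPM, linear axes from 0) of the 9 members in 5 vessel-marker classes, with 1 point per library coloured by group and a line at the median of the 8 libraries. Jag1, Jag2, Hey1 and Hey2 stand out in the arterial class, Dll4 and Notch4 in the arterial and tip-like classes and Esm1 in the tip-like class, whereas Hes1 has medians of 167 to 285 CPM.

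The share of cells with a UMI gave the same placement at equal depth. After each cell was thinned to 2000 UMIs, which left out 1001 of the 7159 cells, Dll4 was found in 45.1% of arterial (Wilson 95% interval 42.1% to 48.2%), 40.8% of tip-like and 7.59% of venous cells, against 79.2%, 78.2% and 28.7% unthinned. Esm1 was found in 21.1% of tip-like cells and Hey1 in 35.8% of arterial cells. Among 91 thinned mural cells without Pecam1 (median 7744 UMIs per cell before thinning, against 11125 in the Pecam1-positive cells), Dll4 was found in 2.20%, Hey1 in 1.10% and Esm1 in 0 cells, which allows a share of up to 3.30% as 3 counts of 91 (Wilson upper bound 4.05%). The venous shares of Esm1 (0.185%) and Hey1 (0.556%) were thus at that background. The venous share of Dll4 (interval 6.16% to 9.33%) overlapped the interval of its mural share (0.605% to 7.66%). Jag1 and Hes1 were also found in 17.6% and 35.2% of the mural cells, and Hey2 in 7.69% of them against 2.35% of arterial cells. These intervals cover counting error only.

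In spontaneous tumours, cGAMP libraries were compared with PBS libraries of the same model. Of the 8 members that could be tested, 2 changed, against 12.7% of the 10424 genes, and both fell. Jag1 had 69.0 and 63.1 CPM after PBS and 38.1 and 40.2 CPM after cGAMP. Its groups did not overlap, and it fell by 0.74 ± 0.11 on the log2 scale (SE, limma adjusted p = 0.00327), a percent change of -40.1%. Notch1 had 255 and 268 CPM after PBS and 212 and 206 CPM after cGAMP, a fall of 0.32 ± 0.08 (adjusted p = 0.0277). The call of Jag1 was kept under all 21 alternatives (highest adjusted p = 0.0415). That of Notch1 was lost without any 1 of the 4 spontaneous libraries (replicates 1 and 2 of PBS, adjusted p = 0.0799 and 0.138, and of cGAMP, 0.111 and 0.146) and with median-of-ratios scaling (0.123).

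The other members of the spontaneous comparison were not called, and most were below 0. Dll4 was at 187 and 209 CPM after PBS and at 177 and 185 CPM after cGAMP, a difference of -0.12 ± 0.11 (adjusted p = 0.475). Jag2 was at 132 and 125 against 111 and 95.7 CPM, a difference of -0.31 ± 0.17 (adjusted p = 0.252). Notch4 differed by -0.15 ± 0.08 (adjusted p = 0.264). The cGAMP values of Dll4, Jag2, Notch4 and Hey1 did not overlap their PBS values, by margins that the test did not tell from the spread. With Jag1 and Notch1, 6 of the 8 tested members had groups that did not overlap. How many of all genes had groups without overlap was not counted, so the members are not set apart by it. Hey1 was at 71.4 and 91.1 against 56.1 and 66.9 CPM, a difference of -0.39 ± 0.17 (adjusted p = 0.16), and Esm1 at 94.9 and 181 against 69.6 and 101 CPM, a difference of -0.64 ± 0.31 (adjusted p = 0.205). The Esm1 groups overlapped, since its PBS libraries lay far apart. Hes1 overlapped too, at 197 and 263 against 240 and 248 CPM (0.10 ± 0.14, adjusted p = 0.683). Hey2, below the filter of 5 CPM, was at 2.46 and 2.87 against 4.78 and 3.33 CPM, without overlap, and was not tested. The median log2 fold change was -0.32 over the 8 members and -0.10 over all genes.

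**Figure D2:**
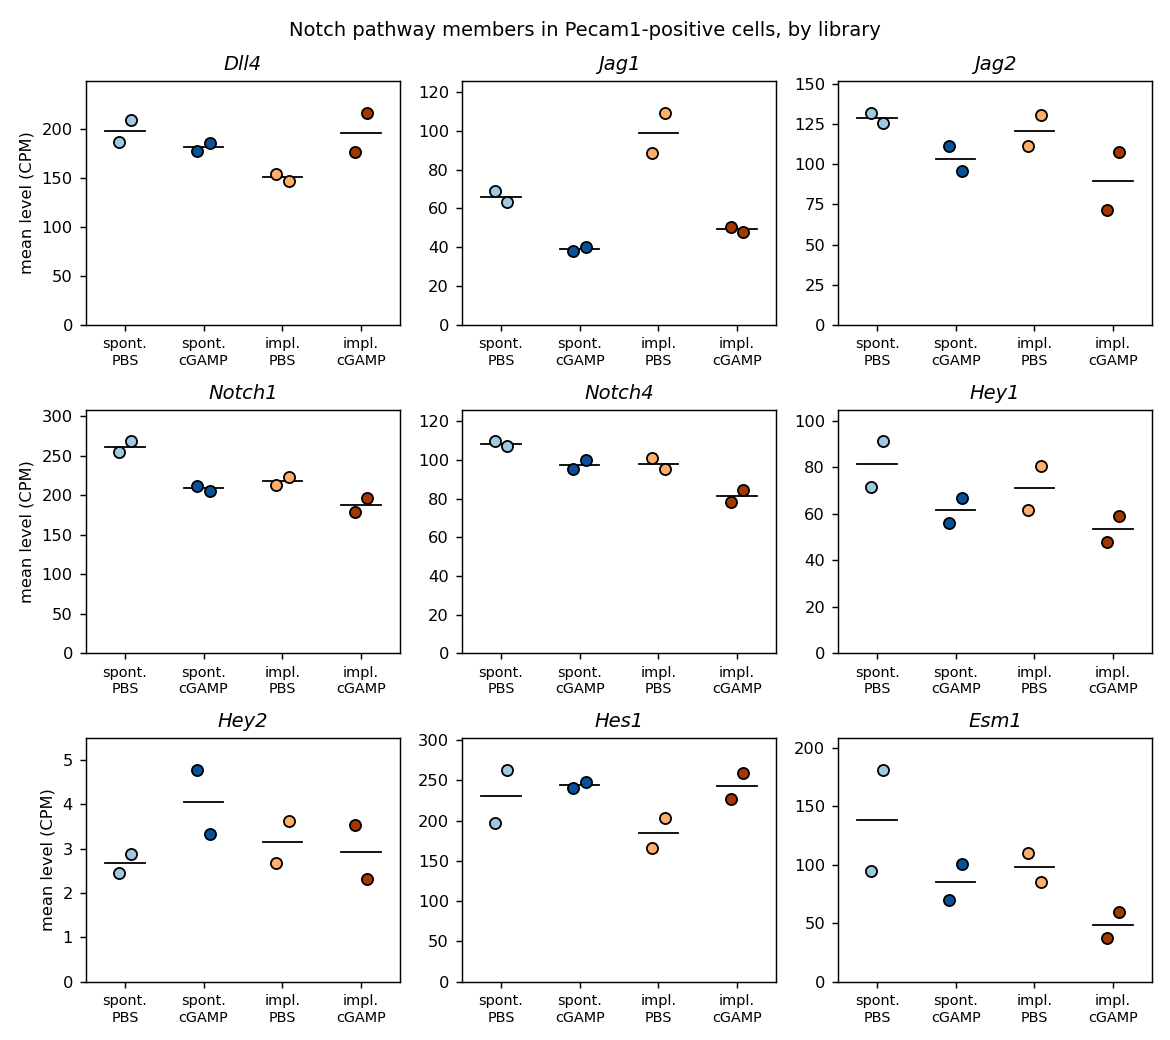
Mean level (CPM, linear axes from 0) of the 9 members in the Pecam1-positive cells of the 8 libraries, with 1 point per library and a line at the mean of each group of 2. The cGAMP libraries of Jag1 lie at 38.1 to 50.6 CPM and its PBS libraries at 63.1 to 109 CPM, and the Dll4 libraries of implanted cGAMP lie above those of implanted PBS.

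In implanted tumour ECs 4 of the 8 tested members changed, against 25% of the 10424 genes, so the share was higher than in the spontaneous model for members and for all genes alike. Jag1 fell from 88.3 and 109 CPM to 50.6 and 47.9 CPM, a log2 change of -0.98 ± 0.11 (adjusted p = 0.000371), and kept its call under all 21 alternatives (highest adjusted p = 0.00613). Esm1 fell from 110 and 85.3 CPM to 37.5 and 59.9 CPM, a log2 change of -1.02 ± 0.31 (adjusted p = 0.0398). Notch4 fell from 101 and 95.2 CPM to 78.4 and 84.4 CPM, a log2 change of -0.27 ± 0.08 (adjusted p = 0.0421). Dll4 was the member that rose, from 154 and 147 CPM to 176 and 217 CPM, by 0.37 ± 0.11 (adjusted p = 0.0292). None of these 4 genes had PBS and cGAMP values that overlapped, and the same held for all 8 tested members, called or not. The share of all genes without overlap was not counted, so this does not set the members apart from other genes.

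Of these 4 calls, that of Jag1 did not rest on any 1 library. Dll4 lost its call without replicate 1 or 2 of implanted PBS (adjusted p = 0.0823 and 0.150), replicate 2 of implanted cGAMP (0.138) or replicate 1 or 2 of spontaneous cGAMP (0.0505 and 0.0510), with no filter (0.0708) and with only the libraries compared (0.0788). Esm1 lost it without replicate 1 or 2 of implanted PBS (0.195 and 0.0830), the shallow replicate 1 of implanted cGAMP (0.172, with a difference of -0.69) or replicate 1 or 2 of spontaneous cGAMP (0.0525 and 0.0531), with no filter (0.127) and with median-of-ratios scaling (0.0674). Notch4 lost it under 14 of 21 alternatives, among them each omitted library but replicate 2 of implanted cGAMP (0.0603 to 0.202). Without any 1 of replicates 1 and 2 of implanted PBS or of spontaneous cGAMP, the count was 1 of 8 members, and without replicate 1 of implanted cGAMP it was 2 of 8.

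The remaining tested members of the implanted comparison had an unadjusted p under 0.05, as had 3896 of the 10424 genes, and did not pass the adjusted test. Jag2 was at 111 and 131 against 71.3 and 107 CPM (-0.46 ± 0.17, adjusted p = 0.0783) and Notch1 at 213 and 223 against 179 and 197 CPM (-0.21 ± 0.08, adjusted p = 0.0740). Without replicate 2 of implanted cGAMP both were called, at adjusted p = 0.00362 and 0.0434. Hey1 was at 61.4 and 80.5 against 47.9 and 58.8 CPM (-0.40 ± 0.17, adjusted p = 0.117). Hes1 was higher in both cGAMP libraries, at 166 and 203 against 226 and 259 CPM (0.40 ± 0.14, adjusted p = 0.0679), and was called without replicate 1 or 2 of spontaneous PBS (0.0358 and 0.0356). Over all 21 alternatives, Jag2, Notch1 and Hes1 stayed uncalled under 18, 19 and 15. They gained a call under 3, 2 and 6, some of these with no library left out. Hey2 was at 2.67 and 3.62 against 3.53 and 2.32 CPM and was not tested. The median log2 fold change was -0.33 over the members and -0.10 over all genes.

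**Figure D3:**
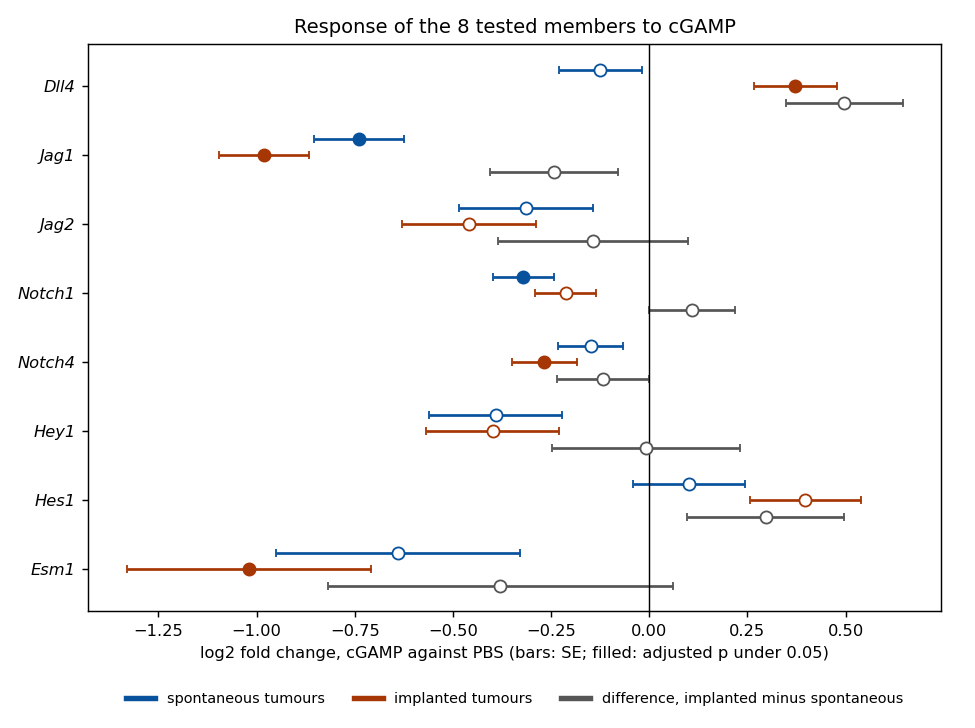
Log2 fold change of 8 members (cGAMP against PBS) in spontaneous and in implanted tumours and the difference between them, with bars of 1 SE, filled where the adjusted p is under 0.05 (limma over 10424 genes). Jag1 is below 0 in both models, Dll4 lies at -0.12 and 0.37, and no difference between the models is filled.

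Genes that mark arterial ECs moved in the same direction as Jag1. Of 9 arterial markers, 4 fell in the spontaneous and 7 in the implanted model and none rose, with medians of -0.66 and -0.88 on the log2 scale. A mean over cells cannot tell fewer cells of a vessel type from less RNA per cell, and the part of these and the following markers in the results was not tested. In spontaneous tumours, 167 of 965 and 85 of 601 cells were arterial after PBS, and 72 of 670 and 73 of 693 after cGAMP. In implanted tumours these were 180 of 1000 and 258 of 1097, and 160 of 1529 and 89 of 604. Tip-like cells numbered 99 and 81 after PBS and 105 and 96 after cGAMP in spontaneous tumours. In implanted tumours they numbered 128 and 101, and 236 and 119. Of 7 tip-like markers, Pgf, Adm and Trp53i11 rose in both models and Apln in the implanted one, where Dll4 also rose. Nid2 fell in both and Kcne3 in the spontaneous model. Of markers of other cells, 2 of 8 mural ones rose in spontaneous tumours (Pdgfrb and Kcnj8). In implanted tumours 1 of 8 mural (Kcnj8), 4 of 7 lymphatic, 2 of 3 tested immune (Ptprc and Lyz2) and 2 of 2 tested fibroblast markers (Col1a1 and Dcn) rose. Of 6 proliferation markers 5 fell in spontaneous and 6 in implanted tumours. Without cells that held at least 3 markers of another type, the calls of Jag1, Notch1, Dll4 and Esm1 were kept, and that of Notch4 was lost (adjusted p = 0.0713).

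The difference between the responses was tested as implanted minus spontaneous, and 0 of 8 members passed, against 0.662% of genes. By the unadjusted p of limma, 1400 of the 10424 genes were under 0.05, and of the members 1 was. This was Dll4, which was lower in both spontaneous cGAMP libraries and higher in both implanted ones, with a difference of 0.50 ± 0.15 (unadjusted p = 0.00820, adjusted p = 0.201). The adjusted p of Dll4 ranged from 0.0587 to 0.482 over the alternatives. Esm1 differed by -0.38 ± 0.44 (adjusted p = 0.760), Hes1 by 0.30 ± 0.20 (adjusted p = 0.565) and Jag1 by -0.24 ± 0.16 (adjusted p = 0.564). That Esm1, Notch4 and Dll4 were called in the implanted model alone therefore did not show that the models differed in them.

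Within the vessel-marker classes, the response was fitted again in the arterial, venous, tip-like, capillary and low-marker classes, each of which had at least 20 cells in every library. The lymphatic and proliferating classes were not fitted. Of 80 tests of a member in a class and a model, 13 passed, 4 in spontaneous and 9 in implanted tumours. In the arterial, venous, tip-like, capillary and low-marker classes in turn, 3.29%, 3.54%, 6.83%, 2.07% and 5.35% of genes were called in spontaneous tumours and 5.8%, 9.59%, 13.5%, 4.1% and 11.6% in implanted tumours. The difference between the models passed in 0 of 40 tests by limma, against 0.0578%, 0.752%, 1.43%, 0.32% and 0.77% of genes. Of these 40 tests, 5 had an unadjusted p under 0.05. The share of all genes under that value was not counted within classes. Some markers that define the classes changed with cGAMP themselves, 3 of 7 tip-like markers rising and 2 falling in spontaneous tumours, so the classes need not hold the same cells after cGAMP and PBS. Whether this moved the values within classes was not tested.

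Jag1 was below 0 in all 5 classes of both models. In implanted tumours it fell in the arterial class, from 312 and 344 CPM to 216 and 196 CPM (-0.67 ± 0.14, adjusted p = 0.00674), where 5.8% of genes were called. In the capillary class it fell from 49.8 and 36.8 CPM to 16.2 and 15.4 CPM (-1.39 ± 0.31, adjusted p = 0.0180), with 4.1% of genes called. In the venous class it fell in both models, with log2 changes of -0.97 ± 0.25 in implanted (adjusted p = 0.0305) and -1.01 ± 0.25 in spontaneous tumours (adjusted p = 0.0488). In the arterial class of spontaneous tumours Jag1 was at 230 and 218 against 179 and 175 CPM and was not called. In the low-marker class of implanted tumours, which held the most cells, Jag1 was at 26.2 and 32.4 against 41.5 and 18.4 CPM and its groups overlapped (-0.07 ± 0.32, adjusted p = 0.925). Of the implanted calls, the arterial was lost without replicate 2 of PBS or of cGAMP (adjusted p = 0.133 and 0.0581), and the capillary without replicate 1 or 2 of implanted PBS (0.200 and 0.0724) or at a class score of 1 (0.312). The implanted venous call was lost without replicate 1 or 2 of implanted PBS (0.291 and 0.0858) or replicate 1 of implanted cGAMP (0.0710) or at a class score of 1 (0.439), and the spontaneous one without each of the 4 spontaneous libraries (0.103 to 0.360) and without replicate 1 or 2 of implanted PBS (0.0852 and 0.0805).

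Esm1 was called in 1 class of spontaneous and 2 classes of implanted tumours. In spontaneous tumours it fell in the tip-like class, from 419 and 553 CPM to 205 and 240 CPM (-1.12 ± 0.21, adjusted p = 0.00277), where 6.83% of genes were called, and it was at 108 and 135 against 77.5 and 196 CPM in the arterial class. In implanted tumours it fell in the arterial class, from 169 and 165 CPM to 34.3 and 46.1 CPM (-2.04 ± 0.30, adjusted p = 0.000401), and in the capillary class, from 131 and 92.6 CPM to 14.4 and 28.7 CPM (-2.38 ± 0.32, adjusted p = 0.000427). In the tip-like class of implanted tumours it was at 249 and 148 against 113 and 144 CPM and was not called. Of the called falls of Esm1, those in the arterial and capillary classes of implanted tumours were larger than that in the tip-like class of spontaneous tumours. The difference between the models was not called in any class, with adjusted p = 0.141 in the arterial (difference -2.07 ± 0.43) and 0.0554 in the capillary class (-2.19 ± 0.46). Without replicate 2 of spontaneous PBS the tip-like call of the spontaneous model was lost (adjusted p = 0.0557), whereas the arterial and capillary calls were kept without any 1 library. The capillary call was lost at a class score of 1 (0.0695).

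Dll4 fell in 1 class of spontaneous tumours and rose in 2 classes of implanted tumours. In the tip-like class of spontaneous tumours it fell from 325 and 350 CPM to 239 and 226 CPM (-0.54 ± 0.13, adjusted p = 0.0189), and in that of implanted tumours it was at 295 and 263 against 303 and 304 CPM. In implanted tumours it rose in the low-marker class, from 113 and 127 CPM to 160 and 207 CPM (0.60 ± 0.17, adjusted p = 0.0294, 11.6% of genes called), and in the venous class, from 13.8 and 19.6 CPM to 41.8 and 30.7 CPM (1.08 ± 0.25, adjusted p = 0.0179). Venous values of Dll4 after cGAMP stayed below every arterial value of the gene. The tip-like call was lost without any 1 of the 4 spontaneous libraries (0.0547 to 0.133). The low-marker call was lost without replicate 1 or 2 of implanted PBS or replicate 2 of implanted cGAMP (0.0782 to 0.189) and in cells of at least 2000 UMIs (0.0728), and the venous call without replicate 1 of either implanted group (0.168 and 0.0601) or at a class score of 1 (0.0791).

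Of the receptors and targets, 3 further pairs were called. Hey1 fell in the tip-like class of spontaneous tumours, from 47.4 and 68.8 CPM to 13.6 and 20.5 CPM (-1.71 ± 0.32, adjusted p = 0.00196), and kept its call under all 11 alternatives (highest adjusted p = 0.0439). In the arterial class, where Hey1 was highest, it was at 265 and 344 against 238 and 330 CPM. Notch4 fell in the arterial class of implanted tumours, from 212 and 187 CPM to 129 and 139 CPM (-0.57 ± 0.15, adjusted p = 0.0362), and lost its call without any 1 of the 4 implanted libraries (0.0771 to 0.412). Notch1 fell in the capillary class of implanted tumours, from 208 and 231 CPM to 128 and 158 CPM (-0.62 ± 0.16, adjusted p = 0.0432), a call lost under 10 of 11 alternatives, among them each omitted library but replicate 2 of implanted cGAMP (0.0629 to 0.252). Hey2 could be tested in the arterial class alone and was not called, at 12.2 and 12.7 against 35.8 and 19.9 CPM in spontaneous and 13.6 and 14.7 against 28.0 and 13.3 CPM in implanted tumours. Jag2 and Hes1 were called by limma in 0 of 20 tests, 3 of which had an unadjusted p under 0.05. These 3, named after their values were seen, were Jag2 in the implanted venous class (-0.77 ± 0.26, adjusted p = 0.0946) and the spontaneous tip-like class (-0.45 ± 0.20, adjusted p = 0.241), and Hes1 in the implanted tip-like class (0.35 ± 0.15, adjusted p = 0.137).

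**Figure D4:**
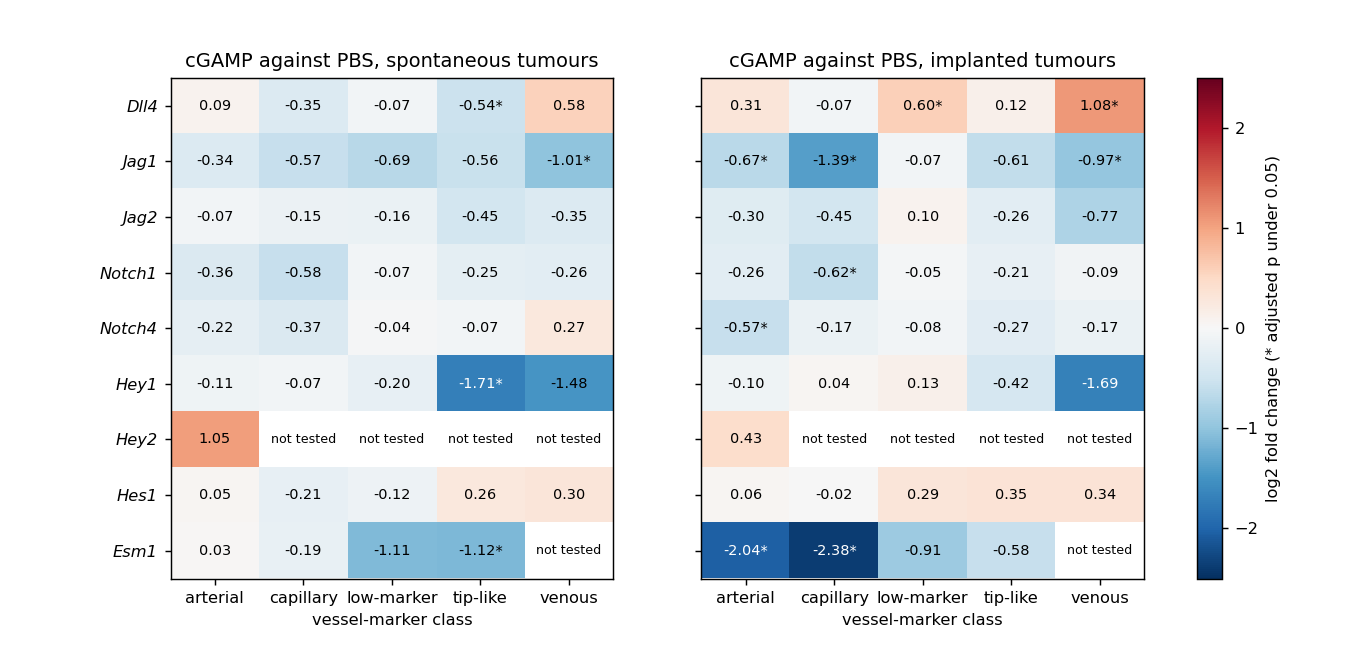
Log2 fold change of each member (cGAMP against PBS) in 5 vessel-marker classes of spontaneous (left) and implanted tumours (right), with an asterisk where the adjusted p of limma is under 0.05 within that class. Jag1 is below 0 in all 10 cells, and the lowest values are those of Esm1 in the arterial and capillary classes of implanted tumours, at -2.04 and -2.38.

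The models were also compared with each other. After PBS 1 of 8 members differed, against 7.83% of genes, and Jag1 was higher in implanted tumours by 0.57 ± 0.11 (adjusted p = 0.0187). Leaving out replicate 2 of spontaneous PBS (0.144) or of implanted PBS (0.128) ended this call. Dll4 and Notch1 were lower in both implanted PBS libraries than in both spontaneous ones, by -0.39 ± 0.11 (adjusted p = 0.0540) and -0.26 ± 0.08 (adjusted p = 0.0720), and did not pass. Both were called when either implanted cGAMP library was left out (Dll4, 0.0152 and 0.0156, and Notch1, 0.0406 and 0.0407), so that 3 members were called there. After cGAMP 0 of 8 members passed in limma, against 13.8% of genes. An unadjusted p under 0.05 was found for 3155 of the 10424 genes and for 3 members. These were Jag1 (0.32 ± 0.11, adjusted p = 0.0906), Notch4 (-0.26 ± 0.08, adjusted p = 0.0670) and Esm1 (-0.81 ± 0.31, adjusted p = 0.114), and their groups did not overlap. In cells of at least 2000 UMIs all 3 were called (adjusted p = 0.0383, 0.0392 and 0.0418), and Jag2 was called without replicate 2 of implanted cGAMP (-0.53, adjusted p = 0.0266).

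Over the 4 groups, the levels of Jag1 thus fell in the order implanted PBS (98.8 ± 14.8 CPM, mean ± SD, n = 2), spontaneous PBS (66.1 ± 4.13 CPM), implanted cGAMP (49.3 ± 1.91 CPM) and spontaneous cGAMP (39.1 ± 1.43 CPM), with no overlap between neighbours. Of these neighbours the PBS groups differed in the test and the cGAMP groups did not. For Dll4 the order was spontaneous PBS (198 ± 16.1 CPM), implanted cGAMP (196 ± 28.5 CPM), spontaneous cGAMP (181 ± 5.74 CPM) and implanted PBS (151 ± 4.71 CPM), and each neighbour overlapped the next but the last. For Esm1 it was spontaneous PBS (138 ± 61.1 CPM), implanted PBS (97.9 ± 17.8 CPM), spontaneous cGAMP (85.3 ± 22.2 CPM) and implanted cGAMP (48.7 ± 15.9 CPM), each neighbour overlapping the next but the last.

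Within classes, 3 of 40 tests of a member passed between the models after PBS and 5 of 40 after cGAMP. In the arterial, venous, tip-like, capillary and low-marker classes in turn, 0.992%, 4.8%, 1.91%, 2.11% and 3.89% of genes were called after PBS and 2.8%, 12%, 4.17%, 2.39% and 3.17% after cGAMP. Dll4 differed between the models after PBS, at 267 and 198 CPM in spontaneous against 131 and 128 CPM in implanted tumours in the capillary class (-0.82 ± 0.19, adjusted p = 0.0359, 2.11% of genes called) and at 48.2 and 67.0 against 13.8 and 19.6 CPM in the venous class (-1.73 ± 0.25, adjusted p = 0.00181, 4.8% of genes called). After PBS, Esm1 was lower in the tip-like class of implanted tumours, at 249 and 148 against 419 and 553 CPM (-1.32 ± 0.21, adjusted p = 0.00159, 1.91% of genes called). After cGAMP, Esm1 was lower there too (-0.79 ± 0.21, adjusted p = 0.0487), and in the arterial (-1.61 ± 0.30, adjusted p = 0.0105) and capillary classes (-2.04 ± 0.32, adjusted p = 0.00389). Dll4 (-1.23 ± 0.25, adjusted p = 0.00995) and Notch4 (-1.68 ± 0.33, adjusted p = 0.00867) were then lower in the venous class of implanted tumours, where 12% of genes were called. All 8 of these pairs were lower in implanted tumours. Whether these 8 calls hold under the alternatives was not summarised, and the adjusted p of Esm1 in the tip-like class after cGAMP lay close to the threshold.

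Of 50 further genes of the pathway, 40 were tested. In spontaneous tumours 3 rose and 3 fell, with a median of -0.06 on the log2 scale, and in implanted tumours 3 rose and 8 fell, with a median of -0.09. These counts stand beside 12.7% and 25% of all genes called, and all-gene medians of -0.10 in both. Lfng, a glycosyltransferase that tunes the response of Notch receptors to their ligands, fell in both, from 36.3 and 34.1 CPM to 17.5 and 20.2 CPM in spontaneous (-0.87 ± 0.13, adjusted p = 0.00262) and from 31.3 and 37.0 CPM to 15.3 and 15.5 CPM in implanted tumours (-1.10 ± 0.13, adjusted p = 0.000398). Nrarp, a target that feeds back on the Notch complex, fell from 170 and 165 CPM to 116 and 114 CPM in spontaneous tumours (-0.54 ± 0.08, adjusted p = 0.00258). Nrarp was also called lower in implanted tumours. Gja4, an arterial gap junction gene counted here among the targets, fell from 387 and 430 CPM to 160 and 254 CPM in implanted tumours (-1.01 ± 0.17, adjusted p = 0.00269). Gja4 and Efnb2 also stand in the arterial marker list. Mib1, a ligase that lets ligands signal, fell by 0.45 ± 0.10 in spontaneous tumours (adjusted p = 0.0209) and was also called lower in implanted tumours.

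The pathway genes that rose were the same 3 in both models. Dtx3l, a ubiquitin ligase that interferon also raises, went from 29.3 and 22.0 CPM to 124 and 129 CPM in spontaneous tumours (2.28 ± 0.26, adjusted p = 0.000410) and rose by 1.59 ± 0.26 in implanted tumours (adjusted p = 0.00218). Neurl3, of the Neuralized ligase family, rose by 1.603 ± 0.23 (adjusted p = 0.00185) and 0.86 ± 0.23 (adjusted p = 0.0224). Egfl7, a secreted endothelial protein that binds Notch, rose from 1238 and 1186 CPM to 1806 and 1911 CPM in spontaneous tumours (0.62 ± 0.07, adjusted p = 0.000536) and from 1109 and 1062 CPM to 1656 and 1818 CPM in implanted tumours (0.68 ± 0.07, adjusted p = 0.000226). Of the 7 tested genes of receptor cleavage none was called in either model, and of the 8 of the nuclear complex only Ctbp1, a corepressor, was called (implanted, -0.39 ± 0.10, adjusted p = 0.0173). None of the 40 passed the test of the difference between responses.

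**Figure D5:**
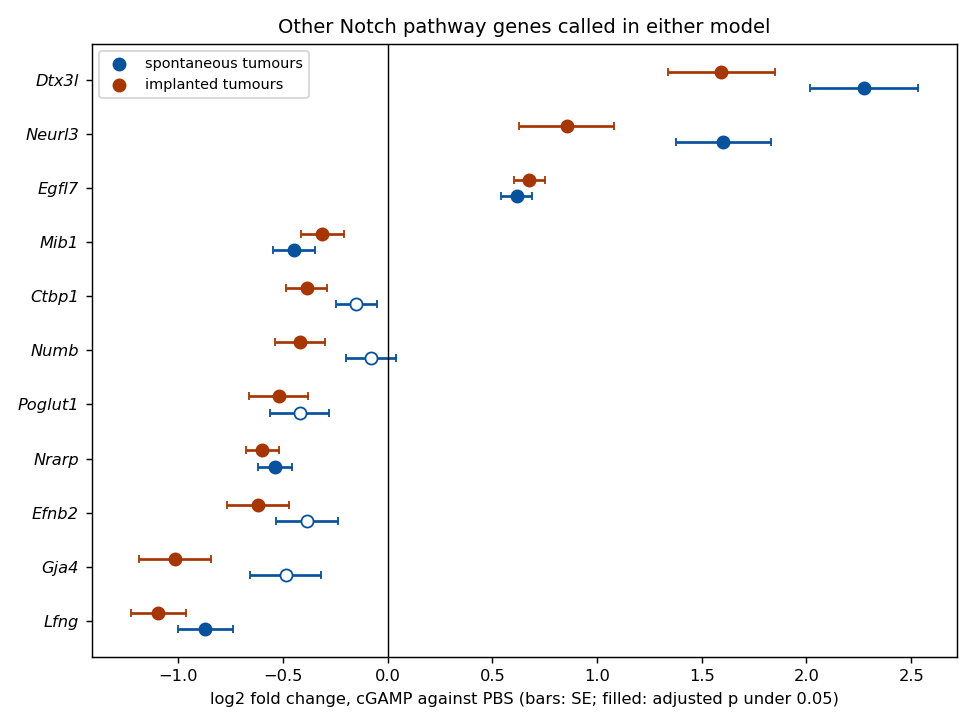
Log2 fold change (cGAMP against PBS) of the 11 further Notch pathway genes called in either model, with bars of 1 SE, filled where the adjusted p of limma is under 0.05. Dtx3l, Neurl3 and Egfl7 are above 0 in both models and the other 8 genes are below 0.

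Between the models, Dtx3l (1.27 ± 0.26, adjusted p = 0.0188) and Neurl3 (0.99 ± 0.23, adjusted p = 0.0304) were higher and Maml3, a coactivator (-0.83 ± 0.15, adjusted p = 0.0115), and Itch, a ligase (-0.39 ± 0.10, adjusted p = 0.0439), lower in implanted tumours after PBS, 4 of the 40 genes. After cGAMP 2 were higher and 5 lower. Of all genes, 7.83% were called after PBS and 13.8% after cGAMP. Dtx1, of the Deltex family, was higher (1.49 ± 0.41, adjusted p = 0.0422), as was the ligand Dll1 (0.56 ± 0.15, adjusted p = 0.0419). Notch3, a receptor of mural cells that stands in the mural list as well, was lower (-2.504 ± 0.71, adjusted p = 0.0456), at 43.0 and 30.3 CPM in spontaneous and 8.48 and 3.51 CPM in implanted tumours. The mural markers were higher in the same spontaneous libraries, and their part in this was not tested. Dtx3 (-0.51 ± 0.13, adjusted p = 0.0375) and Numb, an inhibitor of Notch (-0.49 ± 0.12, adjusted p = 0.0258), were also lower.

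Genes with a pattern most like that of 3 members were taken by Pearson r of log2(CPM + 1) over 53 means of a library and class, among 8488 genes above a mean of 10 CPM. For Dll4 these were the phosphatase gene Ptp4a3 (r = 0.86), the ephrin Efna1 (0.82) and the chemokine receptor Cxcr4 (0.82), the last a tip-like marker that helped to set the classes. For Esm1 they were Ptp4a3 (0.89), Igfbp3 (0.87) and the member Notch4 (0.87), and for Hey1 the transcription factor gene Msx1 (0.88), Oaz2 (0.88) and Slc9a3r2 (0.86). The points share libraries and depth, so these values describe placement only.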

How the data were processed

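Cells had been captured as 3′ libraries with unique molecular identifiers (UMIs). The authors aligned them to mm10 with Cell Ranger 3.0.0 and filtered cells in Seurat 3.1.1, and deposited natural log values, ln(1 + 10000 × UMIs of the gene / UMIs of the cell). Whole UMIs were recovered from them within a tolerance of 0.01. No doublet caller was run, 7 cell barcodes occurred in more than 1 library (14 cells), and 604 Pecam1-positive cells (8.44%) held at least 3 markers of another cell type. Per the methods, cells with few genes or a high mitochondrial share had been removed. The fewest genes in a deposited cell were 501 and the highest mitochondrial share 9.997%. The cell numbers are not explained further in the sources used here.

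Mean CPM per library was tested as log2(CPM + 1) with limma 3.58.1 (R 4.3.3), with all 8 libraries in 1 fit, for 10424 genes of at least 5 CPM in at least 2 libraries, at a Benjamini-Hochberg adjusted p of 0.05. Log2 fold changes are on that scale, which understates changes of low genes, and errors are SE. Overlap of groups of 2 libraries was read for the members alone, and its share over all genes was not counted. All members are named, and of the other pathway genes those called with the largest changes, up to 5 per comparison. Members and lists were chosen with earlier results of these data known. On simulated data of 10120 genes the implanted response recovered 54.08% of 1.5-fold and 98.96% of 2-fold changes, and the difference between responses 19.39% and 75%. The simulated spread between libraries was set alike for all genes and was not taken from these data. The rates therefore need not hold for members with a wider spread, such as Esm1. Wilson intervals (95%) cover counting error only. Alternatives changed the pseudocount, filter, cells, scaling, block and libraries.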

Additional observations from a re-analysis of the deposited data

Results flagged for a closer look

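Dll4 was singled out because its libraries moved in opposite directions in the models. Both cGAMP libraries were below both PBS libraries in spontaneous tumours and above them in implanted tumours, with a difference of 0.4965 on the log2 scale. By limma this difference had an unadjusted p of 0.00820 and an adjusted p of 0.201, so it did not pass the test. How many of all genes moved in opposite directions in this way was not counted, so the rule does not set Dll4 apart from them.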

How the results depend on the processing

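Over 832 refits of a member in a comparison, 742 kept direction and call, 36 lost a call, 31 gained one and 23 changed sign. Most refits were of results not called to begin with, which count as kept when they stayed uncalled. Some left out a library outside the comparison, which leaves the fold change as it was. Only called results could lose a call, so the 36 losses are to be read against those alone. The cause of each change below was not tested. The count of members called in the spontaneous response (2) was 4 with UMIs summed over cells, 1 with median-of-ratios scaling and 1 to 2 without 1 library. That of the implanted response (4) was 2 with no filter, 2 with only the libraries of the comparison and 1 to 5 without 1 library. After PBS the count between models (1) was 0 with no filter, 2 each with a filter of 20 CPM, Cdh5-positive cells, cells without markers of other types, cells of at least 2000 UMIs, the replicate block and only the libraries compared, and 0 to 3 without 1 library. After cGAMP (0) it was 3 in cells of at least 2000 UMIs, 1 with median-of-ratios scaling and 0 to 1 without 1 library. The count within classes (13) was 6 to 13 without 1 library, with 6 and 7 without replicates 1 and 2 of implanted PBS.

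Members that changed sign were not called in those comparisons. Without 1 library, Hes1 ranged from -0.107 to 0.309 in the spontaneous response. For the difference of responses, Jag2 ranged from -0.436 to 0.149, Hey1 from -0.200 to 0.184 and Esm1 from -0.842 to 0.0848. After PBS, Jag2 ranged from -0.209 to 0.0230 and Esm1 from -0.895 to 0.0326, and after cGAMP Dll4 from -0.0410 to 0.255, Jag2 from -0.529 to 0.0554 and Hes1 from -0.109 to 0.0869. With summed UMIs the difference was 0.0019 for Notch4 and 0.221 for Hey1, and Hey1 was at 0.199 after cGAMP. The difference for Hey1 was 0.00909 without cells with markers of other types, 0.210 in cells of at least 2000 UMIs and 0.0393 without proliferating and lymphatic classes. After cGAMP, Hey1 was at 0.0836 in cells of at least 2000 UMIs, and Hes1 at 0.00581 in all cells, 0.0121 without cells with markers of other types and 0.0702 with median-of-ratios scaling. That scaling moved the median of all genes from -0.10 to -0.0036 and -0.0071 in the responses.

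Replicate numbers did not pair the libraries (correlations of deviations -0.2162 to 0.1255). With the replicate block the counts were 3 in the spontaneous and 5 in the implanted response and 2 after PBS. Hey1 was then called in both responses (adjusted p = 0.027 and 0.013), Hes1 in the implanted one (0.017) and Dll4 after PBS (0.0465), whereas Notch4 in the implanted response (0.0555), Jag1 in the spontaneous venous class (0.0602) and Notch1 in the implanted capillary class (0.0509) lost their calls. The shallow replicate 1 of implanted cGAMP limits the precision of low genes.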
